A study of Saccharomyces cerevisiae with 161 samples.

Results

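The regions described here are the Red1, Hop1 and Rec8 peaks nearest to the chromosome ends in meiotic cells of budding yeast, Saccharomyces cerevisiae. On each of the 16 chromosomes the span was taken to run from the outermost peak edge on the left to that on the right in any of the 3 peak lists, and a peak was counted as an end peak when its midpoint lay within 20 kb of either end of that span. This rule selected 284 of 4677 peaks, namely 91 of 1571 Red1 peaks (5.79%), 89 of 1514 Hop1 peaks (5.88%) and 104 of 1592 Rec8 peaks (6.53%). The rule used positions only, so width, enrichment and overlap did not enter it directly. The outermost peaks set the span, so overlap at its edges is not independent of the rule.

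Meiotic chromosomes are folded into chromatin loops that are anchored to a protein axis. Rec8 is the meiotic kleisin subunit of cohesin, the ring complex that holds sister chromatids together and forms much of the base of the axis. Red1 is an axis core protein that binds Hop1, and Hop1 is a HORMA-domain protein that promotes the formation of meiotic DNA double-strand breaks and their repair from the homolog. Subtelomeres, the regions next to the telomeres, hold few essential genes and many sequences that are repeated between chromosomes.

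The study compared the distribution of axis proteins between wild type and mutants by chromatin immunoprecipitation followed by sequencing (ChIP-seq). All samples behind the 3 lists are wild type of the SK1 background, which enters meiosis synchronously, taken 3 h after meiotic induction. The labels give 4 ChIP samples with an antibody against Red1, 4 with an antibody against Hop1 and 2 with an antibody against the HA tag, used to precipitate Rec8. The Rec8 samples come from a strain of their own (H4471) with their own input libraries. Of the others, 1 Red1 and 1 Hop1 sample come from a strain that also carries SMC4-PK9 (H6408) and share 1 input library, 3 Red1 and 1 Hop1 samples come from strain H119 and 2 Hop1 samples from strain H574. The authors called broad peaks, which join neighbouring enriched stretches into 1 interval, on the combined samples of each protein. Each protein therefore has a single list, no value of a peak has a replicate error, and the read depth behind the lists is unknown. The lists were called on different numbers of samples, and the part of this in any difference between Rec8 and the other proteins was not tested. Where a test is given, its units are the 16 chromosomes of 1 list. Its p-value describes the spread among chromosomes and not among cultures.

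Because peaks define the span, at least 1 list has a peak at distance 0 at each of the 32 ends. A Rec8 peak set the end at 24 ends, a Hop1 peak at 6 and a Red1 peak at 2. Coordinates are those of the SK1 build used in the lists, and the telomeric ends themselves were not known on the right arms. On the left arms, where coordinates start at 1, the first peak of any list began under 1 kb from the start on 7 chromosomes, from 1 to 18 kb on 4 and beyond 18 kb on 5.

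Each end held few peaks of each protein. Rec8 had 3.25 ± 0.984 peaks per end (SD, n = 32 ends), with a lowest count of 1 and a highest of 6. Red1 had 2.84 ± 1.48 and Hop1 2.78 ± 1.21 peaks per end, and both ranged from 0 to 6. Rec8 therefore varied least between ends in the number of peaks. Part of this can come from the rule, since a Rec8 peak set the end at 24 of the 32 ends and its count there is at least 1 by construction. A single Red1 peak was found at 5 ends, a single Hop1 peak at 4 ends and a single Rec8 peak at 1 end, the left end of chromosome III.

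**Figure D1:**
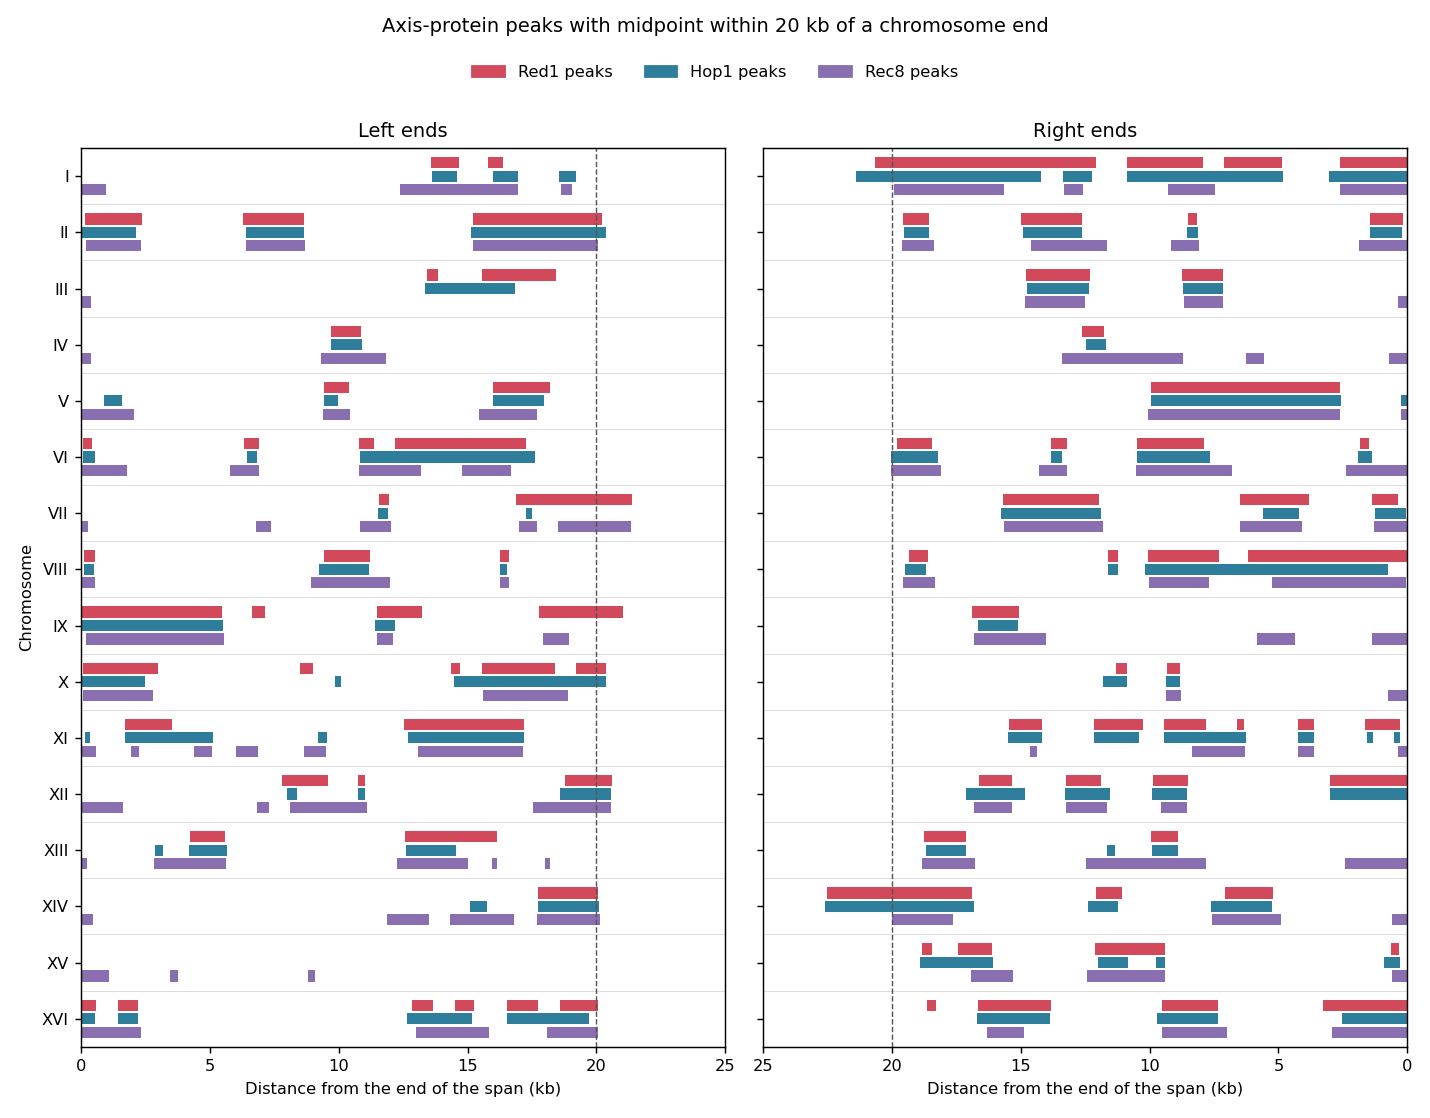
Map of the 284 end peaks. Each row is a chromosome, with its left end in the left panel and its right end in the right panel, and bars show the extent of Red1, Hop1 and Rec8 peaks against the distance from the end of the span in kb (dashed line, 20 kb). Rec8 bars reach the outer edge at most ends, and the left end of chromosome XV holds Rec8 bars only.

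The left end of chromosome XV was the only end without a peak of 1 of the proteins, and it lacked both Red1 and Hop1. It held 3 Rec8 peaks, which covered 8.42% of the window, the lowest coverage by any list among the 32 ends. The outermost lay from 187 to 1250 with a fold enrichment (ChIP signal over input, averaged over the peak) of 1.37. The next lay from 3616 to 3960 and from 8990 to 9263, with fold enrichments of 1.17 and 1.14. On this arm the first Red1 peak began 26.3 kb and the first Hop1 peak 27.1 kb from coordinate 1. No end lacked Rec8, but at 24 of the 32 ends this holds by construction, since a Rec8 peak set the end.

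Of the other ends with the least sequence in peaks, the right end of chromosome X had 15.53% of its window covered by at least 1 list and the left end of chromosome IV 16.4%. At X right, Red1 covered 8.98%, Hop1 11.6% and Rec8 10.5%. The outermost Red1 and Hop1 peaks began 8826 and 8835 bp from the end there, next to a Rec8 peak at 8805 bp, while a Rec8 peak of 736 bp with a fold enrichment of 1.18 set the end itself. At IV left, 1 Red1 peak (16866 to 18035, fold enrichment 1.50) and 1 Hop1 peak (16849 to 18057, fold enrichment 1.56) lay inside a Rec8 peak (16475 to 18970, fold enrichment 2.06). Among the end peaks, all 3 proteins thus met at 1 place on IV left, and the only other end peak was a Rec8 peak of 360 bp at the outer edge. Peaks of all 3 proteins with midpoints beyond 20 kb also met at the inner edge of the window, among them those of Hop1 (26868 to 27720) and Rec8 (26739 to 28713).

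The ends with the most sequence in peaks were the right ends of chromosomes I and VIII and the left end of chromosome XI, with 85.1%, 59.0% and 51.8% of the window covered by at least 1 list. At I right, Red1 covered 78.6%, Hop1 80.1% and Rec8 47.0% of the window. Each of these was the highest share of its protein at any end. The 4 Red1 peaks of I right included the widest end peak of Red1 (198037 to 206632, 8596 bp, fold enrichment 2.17), and the longest stretch without a peak of any list was 1789 bp, the shortest such gap at any end. At VIII right, Red1 covered 50.5%, Hop1 53.1% and Rec8 43.9%, and the widest end peak of Hop1 lay there (508261 to 517663, 9403 bp, fold enrichment 2.00). At XI left, Red1 covered 32.3%, Hop1 42.4% and Rec8 36.6%. The 6 Rec8 peaks of XI left ranged in width from 300 to 4087 bp, and 4 of them overlapped no Red1 peak. Of these 4, 3 overlapped a Hop1 peak and 1 overlapped neither protein.

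Over the 32 ends, Red1 covered between 0 and 78.6% of the window (median 24.7%), Hop1 between 0 and 80.1% (median 24.9%) and Rec8 between 1.97 and 47.0% (median 30.9%). Mean coverage reached 26.2 ± 16.6% with Red1, 26.8 ± 17.3% with Hop1 and 30.0 ± 11.3% with Rec8 (SD, n = 32). Red1 and Hop1 coverage lay within 10 percentage points of each other at 31 ends, the exception being XI left, where Hop1 covered more. Red1 and Rec8 lay within 10 points at 19 ends, and Hop1 and Rec8 at 17 ends. Coverage at single ends was thus closer between Red1 and Hop1 than between either and Rec8.

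**Figure D2:**
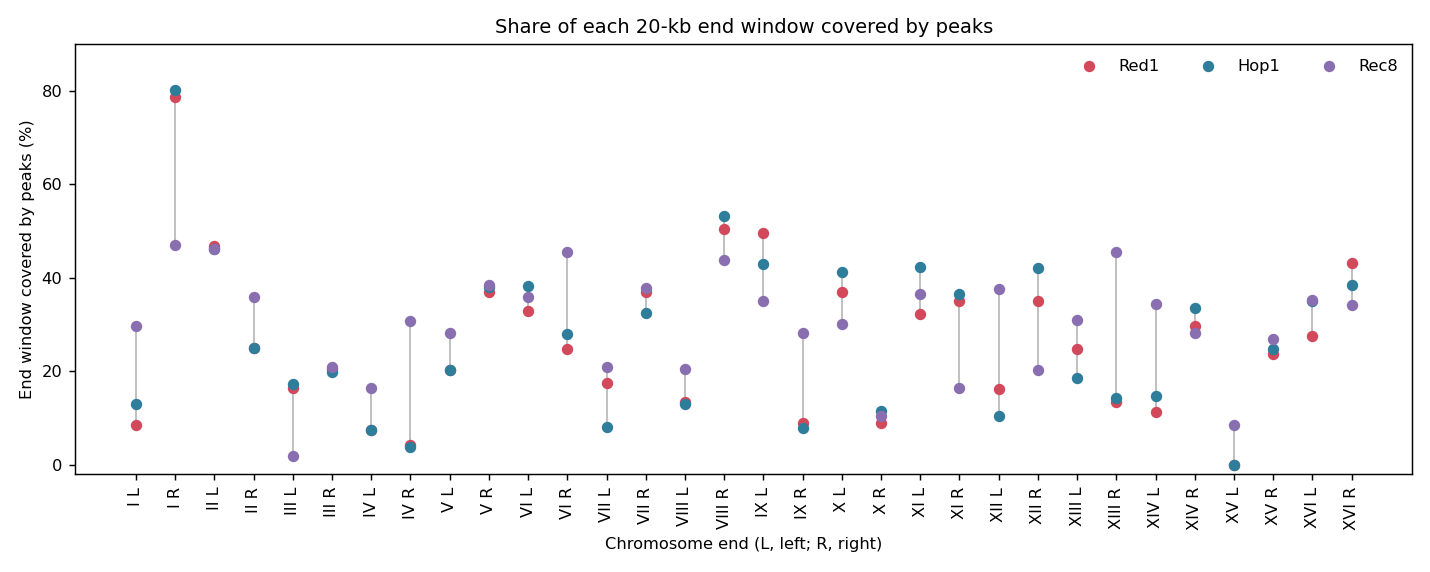
Share of each 20-kb end window covered by Red1, Hop1 and Rec8 peaks (vertical axis, %), with the 32 ends in chromosome order on the horizontal axis (L, left; R, right) and a grey line joining the proteins of an end. Points of Red1 and Hop1 sit together at nearly all ends, with Rec8 apart from them in either direction, and I right reaches 80.1% for Hop1.

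Rec8 had the highest coverage of the proteins at 19 ends, Hop1 at 10 ends and Red1 at 3 ends. This order and the counts below are not independent of the rule, since a Rec8 peak set the end at 24 ends, a Hop1 peak at 6 and a Red1 peak at 2. Red1 coverage was below that of Rec8 at 22 ends, and the difference Red1 minus Rec8 ran from -32.02 percentage points at XIII right, where Red1 covered 13.5% and Rec8 45.5%, to 31.6 points at I right. Red1 was more than 10 points below Rec8 at 8 ends and more than 10 points above it at 5 ends. Besides XIII right, wide deficits included those at IV right (Red1 4.18%, Rec8 30.7%), XIV left (Red1 11.4%, Rec8 34.4%) and XII left (Red1 16.2%, Rec8 37.6%). Besides I right, wide excesses included those at XI right (Red1 35.1%, Rec8 16.5%), XII right (Red1 34.9%, Rec8 20.3%) and III left (Red1 16.4%, Rec8 1.97%). The ends of 1 chromosome could differ in this, since Rec8 led at XII left and Red1 and Hop1 led at XII right. These ends were picked after their values were seen.

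The proteins also differed in how near to the end their peaks began. The outermost Rec8 peak began within 188 bp of the end of the span on all left arms, and over all 32 ends it began more than 5 kb inside at XII right alone, at 8569 bp. The outermost Red1 peak began more than 5 kb inside at 13 of the 31 ends that had one, and the outermost Hop1 peak at 12 of 31. The farthest were 17729 bp for Red1, at XIV left, and 15113 bp for Hop1, at IX right. Of the ends with peaks of both, Red1 began farther inside than Rec8 at 25 and nearer at 6. These distances are a description, because the outermost peak of the lists, most often that of Rec8, is itself the zero point.

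Counted from coordinate 1 in place of the first peak, the left arms gave a different picture for the arms whose first peak lay far inside. The first 20 kb then held no midpoint of a Red1 peak on 6 chromosomes, of a Hop1 peak on 5 and of a Rec8 peak on 5. The first peak of any list began 21.7 kb from coordinate 1 on chromosome V, 26.8 kb on XVI and 32.5 kb on X. The median distance from coordinate 1 to the first Red1 peak was 17.4 kb, to the first Hop1 peak 16.1 kb and to the first Rec8 peak 5.73 kb. How much of these outer stretches can be mapped by single-location reads was not tested.

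To ask whether the end windows are depleted or enriched in axis peaks, the 2 end windows of each chromosome were compared with the rest of the same chromosome. Differences are ends minus rest, and p-values come from exact two-sided permutation tests over the 65536 sign patterns of 16 chromosomes, adjusted by the Benjamini-Hochberg method over 25 tests. Red1 peaks covered 26.2 ± 9.55% of the end windows, against 34.3 ± 12.6% of the rest (SD, n = 16), a difference of -8.14 percentage points with lower coverage at the ends on 12 of 16 chromosomes (adjusted exact p = 0.0626). Hop1 covered 26.8 ± 10.6% of the end windows, against 33.7 ± 13.2% of the rest, lower on 11 chromosomes (adjusted exact p = 0.112). Rec8 covered 30.0 ± 8.41% of the end windows, against 25.99 ± 3.02% of the rest, higher on 13 chromosomes (adjusted exact p = 0.158). None of these 3 differences alone passed the threshold of 0.05. A Rec8 peak set the end at 24 of the 32 ends. In windows from 2 to 22 kb, which leave out the outermost 2 kb, the Rec8 difference was 0.582 points (adjusted exact p = 0.904). There the difference was -8.95 points for Red1 and -7.21 points for Hop1. Without the 3 shortest chromosomes it was -3.50 points for Red1, -2.36 points for Hop1 and 5.18 points for Rec8, and none passed. With left ends alone, counted from coordinate 1 and with all right ends left out, all 3 passed as lower. Rec8 changed direction there, at -11.0 points and lower on 12 chromosomes (adjusted exact p = 0.0137, between 0.0137 and 0.904 over its alternatives).

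What did pass was the contrast between the proteins. Coverage by Red1 minus coverage by Rec8 was -3.81 ± 7.94 percentage points in the end windows, against 8.31 ± 9.89 points in the rest, a difference of -12.1 points (SD 11.1) that was negative on 15 of 16 chromosomes (adjusted exact p = 0.00229, exact permutation test). It ran from -40.8 points on chromosome VI and -28.2 on I to 2.59 on XI. The same contrast for Hop1 minus Rec8 was -3.15 ± 9.24 points in the end windows and 7.69 ± 10.5 points in the rest, a difference of -10.8 points (SD 11.5) that was negative on 13 chromosomes (adjusted exact p = 0.00966). Red1 minus Hop1 did not pass, with a difference of -1.27 points, negative on 13 chromosomes (adjusted exact p = 0.158). Relative to Rec8, Red1 and Hop1 thus covered less of the end windows than of the rest. These contrasts are not independent of the rule. A Rec8 peak set the end of the span at 24 of the 32 ends, which can raise Rec8 coverage of the end windows by construction. With windows from 2 to 22 kb, which leave out the outermost 2 kb of the span, the Red1 difference was -9.53 points and kept its call (adjusted exact p = 0.00763), whereas that of Hop1 was -7.79 points and lost it (adjusted exact p = 0.0507). That of Hop1 also lost it without the 3 shortest chromosomes, at -7.55 points. With 40-kb windows both lost it, at -5.81 and -3.61 points, and with right ends alone both lost it, at -10.5 and -9.01 points. The adjusted p over all alternatives ran between 0.000381 and 0.238 for Red1 and between 0.000763 and 0.359 for Hop1.

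**Figure D3:**
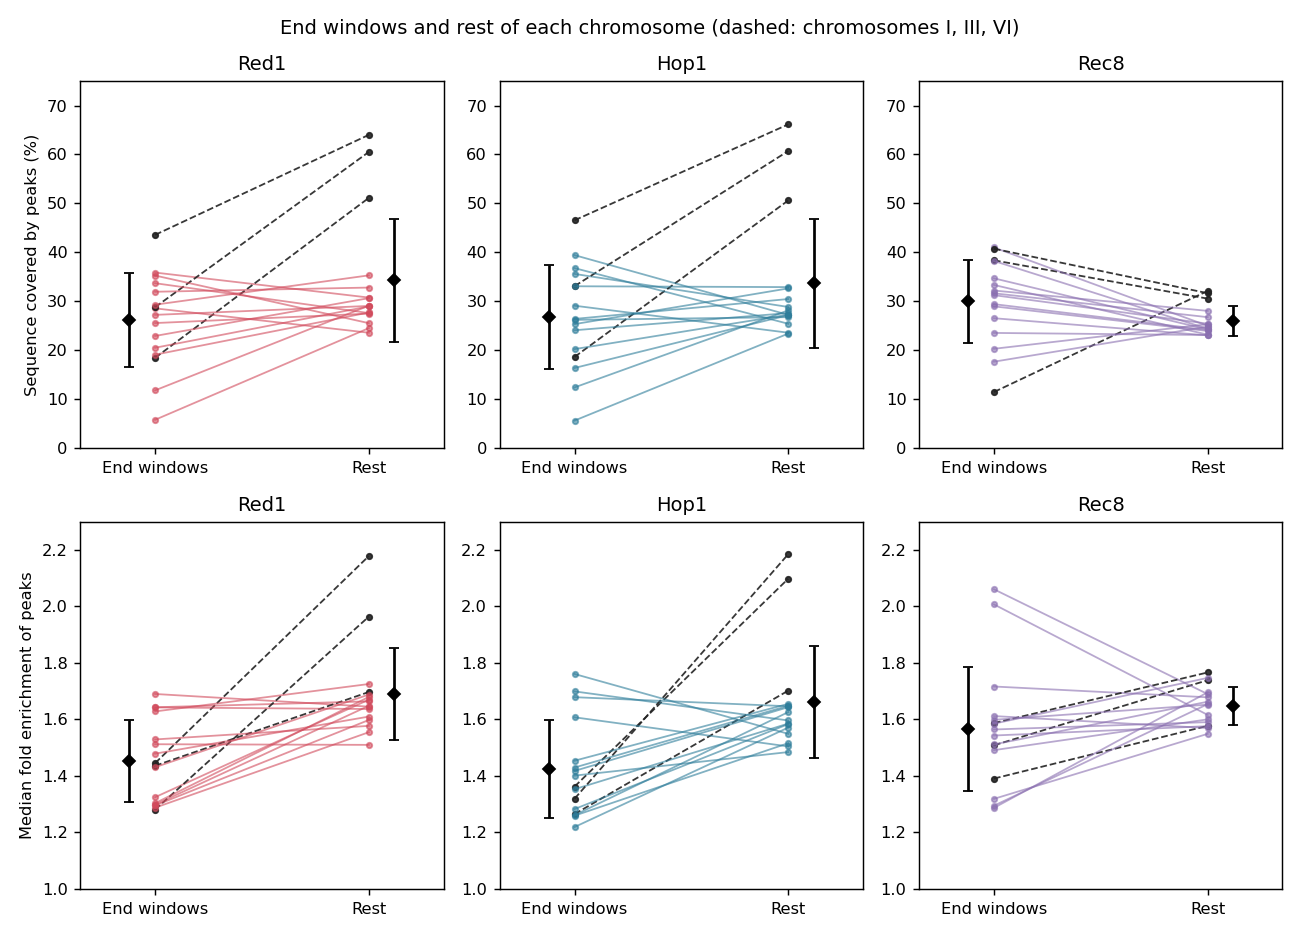
Coverage (upper panels, %) and median fold enrichment of peaks (lower panels) in the end windows and in the rest of each of 16 chromosomes for Red1, Hop1 and Rec8. Points joined by a line are 1 chromosome, dashed lines are the 3 shortest chromosomes (I, III and VI), and diamonds with bars are the mean and SD. Lines of Red1 and Hop1 mostly run upwards to the rest in both rows of panels, with mean coverages of 26.2% and 26.8% at the ends, while those of Rec8 coverage mostly run downwards. A Rec8 peak set the end of the span at 24 of the 32 ends, which can raise its end coverage by construction.

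In the number of peaks, Rec8 alone differed between these end windows and the rest by the test, and this depended on which stretch was taken as the end. Red1 had 1.42 ± 0.538 peaks per 10 kb in the end windows, against 1.31 ± 0.151 in the rest, higher on 8 and lower on 8 chromosomes (adjusted exact p = 0.493). Hop1 had 1.39 ± 0.4997 peaks per 10 kb, against 1.25 ± 0.158 in the rest, higher on 9 chromosomes (adjusted exact p = 0.446). Rec8 had 1.63 ± 0.398 peaks per 10 kb, against 1.36 ± 0.0881 in the rest, and this difference of 0.263 passed the test, higher on 12 chromosomes (adjusted exact p = 0.0481). It was -0.0861 in windows from 2 to 22 kb, which leave out the outermost 2 kb, where at least 1 list has a peak by construction. Over all alternatives the difference ran from -0.271 to 0.479, and it kept its call with the same sign under 1 of 9. A further alternative took left ends alone, counted from coordinate 1. There Red1 (-0.751 peaks per 10 kb, lower on 16 of 16 chromosomes) and Hop1 (-0.566, lower on 12) passed the test and Rec8 (-0.271, lower on 9) did not.

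By distance, mean Red1 and Hop1 coverage over all 32 ends was lower in the outer 15 kb than farther inside, and part of that gap lay on chromosomes I, III and VI. Red1 covered 23.3 ± 29.8% of the outermost 5 kb, 22.6 ± 26.01% from 5 to 10 kb and 24.5 ± 22.2% from 10 to 15 kb (SD, n = 32 ends). It covered 34.2 ± 26.8% from 15 to 20 kb and 33.1 ± 17.4% from 20 to 40 kb, and the bands out to 100 kb lay between 34.2% and 37.8%. Hop1 followed the same course, with 23.9% in the outermost 5 kb and 35.3% from 15 to 20 kb. Rec8 started at 33.5 ± 24.2% in the outermost 5 kb, was at 26.9% and 27.2% in the next bands and at 32.3% from 15 to 20 kb, and lay between 24.3% and 27.9% farther inside. At the 26 ends of the other 13 chromosomes, Red1 covered 25.98 ± 31.1% of the outermost 5 kb, 21.3% and 20.7% of the next bands and 32.8% from 15 to 20 kb, and between 26.7% and 32.01% from there to 100 kb. Hop1 covered 26.2% of the outermost 5 kb at these ends and between 26.6% and 32.9% beyond 20 kb. Single ends spread widely, as 14 ends had no Red1, 13 no Hop1 and 1 no Rec8 in the outermost 5 kb. Distance is counted from the outermost peak, which was a Rec8 peak at 24 of the 32 ends. The Rec8 values of the outermost 5 kb are therefore partly fixed by the rule. Bands were not tested against each other.

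**Figure D4:**
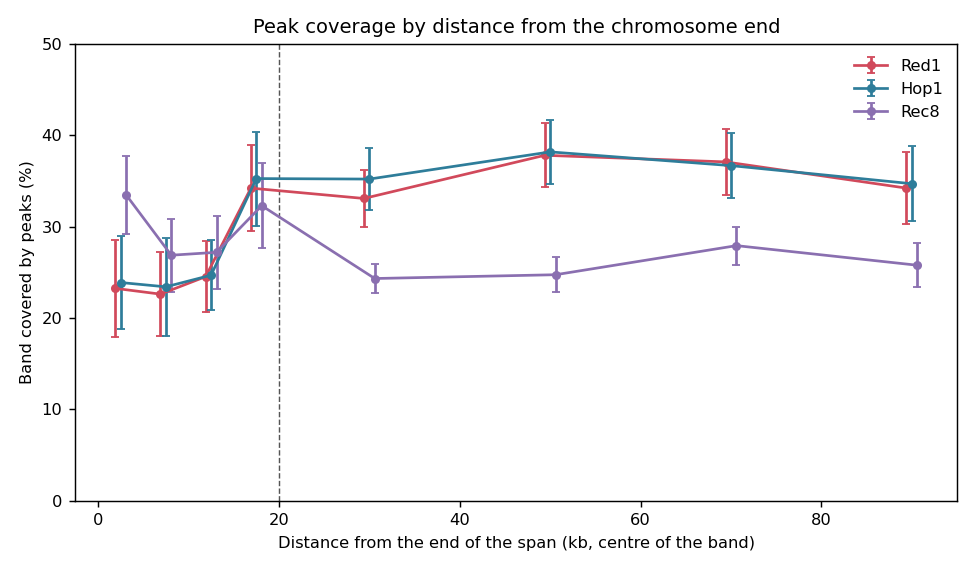
Mean share of each distance band covered by Red1, Hop1 and Rec8 peaks (vertical axis, %) against the distance of the band's centre from the end of the span in kb, over 32 ends. Bars are the standard error over ends and the dashed line marks 20 kb. Distance starts at the outermost peak, a Rec8 peak at 24 of the 32 ends, so Rec8 in the outermost band is partly fixed by the rule. Red1 and Hop1 lie near 23% to 25% over the outer 15 kb and above 33% farther inside, where Red1 lies between 26.7% and 32.01% beyond 20 kb without chromosomes I, III and VI, and Rec8 is highest in the outermost band at 33.5%.

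No difference in width between the ends and the rest passed the test. Over all end peaks, the width ranged from 263 to 8596 bp for Red1 (median 1368 bp), from 204 to 9403 bp for Hop1 (median 1302 bp) and from 204 to 7464 bp for Rec8 (median 1628 bp). The widest Rec8 end peak lay at V right (562858 to 570321, fold enrichment 1.70) and nearly coincided with a Red1 peak of 7373 bp and a Hop1 peak of 7359 bp. Taken per chromosome, the median width of Red1 was 1533 ± 698 bp at the ends, against 2174 ± 1085 bp in the rest (lower on 11 chromosomes, adjusted exact p = 0.112). That of Hop1 was 1372 ± 670.0 bp, against 2149 ± 1146 bp (lower on 12, adjusted exact p = 0.0813), and that of Rec8 was 1613 ± 585 bp, against 1636 ± 205 bp (lower on 9, adjusted exact p = 0.939). The rest held Red1 and Hop1 peaks up to 28539 and 24755 bp wide, beyond any end peak, and Rec8 peaks up to 9640 bp.

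Peaks of Red1 and Hop1 were less enriched at the ends. The median fold enrichment of Red1 peaks was 1.45 ± 0.145 in the end windows, against 1.69 ± 0.163 in the rest, a difference of -0.239 that was negative on 13 of 16 chromosomes (adjusted exact p = 0.00534, exact permutation test). That of Hop1 peaks was 1.42 ± 0.173, against 1.66 ± 0.197, a difference of -0.239 that was negative on 12 chromosomes (adjusted exact p = 0.0150). Rec8 peaks had 1.57 ± 0.219, against 1.65 ± 0.0683, and this difference of -0.0804 did not pass (lower on 12 chromosomes, adjusted exact p = 0.256). Whether the Red1 or Hop1 difference exceeds that of Rec8 in fold enrichment was not tested. Without the 3 shortest chromosomes the Red1 difference was -0.165 (adjusted exact p = 0.0376) and the Hop1 difference was -0.137 and no longer passed (adjusted exact p = 0.0765). With 10-kb windows, 40-kb windows or right ends alone both lost their calls, and the Red1 difference was -0.170, -0.199 and -0.180. Over all alternatives the adjusted p ran between 0.00153 and 0.238 for Red1 and between 0.00153 and 0.346 for Hop1.

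Enriched peaks were nevertheless present at some ends. A fold enrichment of at least 2 was reached by 10 of 91 Red1 end peaks (10.99%), against 419 of 1480 others (28.3%), by 8 of 89 Hop1 end peaks (8.99%), against 391 of 1425 (27.4%), and by 16 of 104 Rec8 end peaks (15.4%), against 381 of 1488 (25.6%). The highest Red1 end peak lay at X left (48077 to 50901, fold enrichment 2.87) and the next at XVI right (911117 to 913268, fold enrichment 2.58). The XVI right site was shared by all 3 proteins. The highest Hop1 end peak lay there (910918 to 913281, fold enrichment 2.90), as did the second of Rec8 (911098 to 913621, fold enrichment 2.69). The second Hop1 end peak lay at I right (197315 to 204492, fold enrichment 2.57). The highest Rec8 end peak was a narrow one of 528 bp at the very edge of VIII left (361 to 888, fold enrichment 2.79), where it overlapped Red1 and Hop1 peaks. Even the strongest end peaks were below the maxima of the rest, which were 3.68 for Red1, 3.84 for Hop1 and 3.43 for Rec8.

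By count alone, low certainty of the peak caller was more frequent at the ends for Rec8 and Hop1 peaks, and not for Red1 peaks. The shares that follow were not tested, and those of Hop1 and Red1 rest on 10 and 2 end peaks. A −log10 q-value under 5 was found for 21 of 104 Rec8 end peaks (20.2%), against 200 of 1488 others (13.4%), for 10 of 89 Hop1 end peaks (11.2%), against 91 of 1425 (6.39%), and for 2 of 91 Red1 end peaks (2.20%), against 65 of 1480 (4.39%). At the edge of the 20-kb rule, the last Red1 peak inside lay 19.8 kb from X left (fold enrichment 1.36) and the first outside 20.1 kb from X right (1.58). For Hop1 these were at 19.7 kb (1.53) and 20.1 kb (1.29), and for Rec8 at 19.9 kb (2.38) and 20.6 kb (1.75).

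Overlap was counted from 1 shared bp. Of the 91 Red1 end peaks, 76 (83.5%) overlapped both Hop1 and Rec8, against 83.2% of the whole Red1 list, and 3 (3.30%) overlapped neither, against 5.98% of the list. Of the 89 Hop1 end peaks, 73 (82.0%) overlapped both others, against 87.1% of the list, and 1 (1.12%) overlapped neither, against 2.64%. Of the 104 Rec8 end peaks, 73 (70.2%) overlapped both others, against 88.3% of the list, and 23 (22.1%) overlapped neither, against 6.91%. Red1 end peaks therefore overlapped the others about as often as the list did, and Rec8 end peaks less often. A Rec8 peak set the end of the span at 24 of the 32 ends, which can lower the Rec8 share by construction.

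Taken per chromosome, the share of Rec8 peaks that overlapped both others was 69.5 ± 21.1% in the end windows, against 90.2 ± 4.07% in the rest, a difference of -20.7 percentage points that was negative on 12 chromosomes, positive on 3 and 0 on 1 (adjusted exact p = 0.00992, exact permutation test). It was lowest at the ends of chromosome IV, where 2 of 5 Rec8 peaks overlapped both, and was 100% at the ends of chromosomes II, VI, VIII and XVI. The same share of Red1 peaks was 84.1 ± 17.5%, against 82.8 ± 4.91% (adjusted exact p = 0.874, higher on 9 chromosomes), and that of Hop1 peaks was 83.0 ± 17.7%, against 87.2 ± 2.83% (adjusted exact p = 0.471, higher on 8). The peaks that set the ends are part of this difference. In windows from 2 to 22 kb, which leave out the outermost 2 kb, the Rec8 difference was -6.10 points and did not pass (adjusted exact p = 0.306). With 40-kb windows it was -9.20 points (adjusted exact p = 0.0868), and with right ends alone it was -11.0 points (adjusted exact p = 0.348). Over all alternatives its adjusted p ran between 0.00381 and 0.348.

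**Figure D5:**
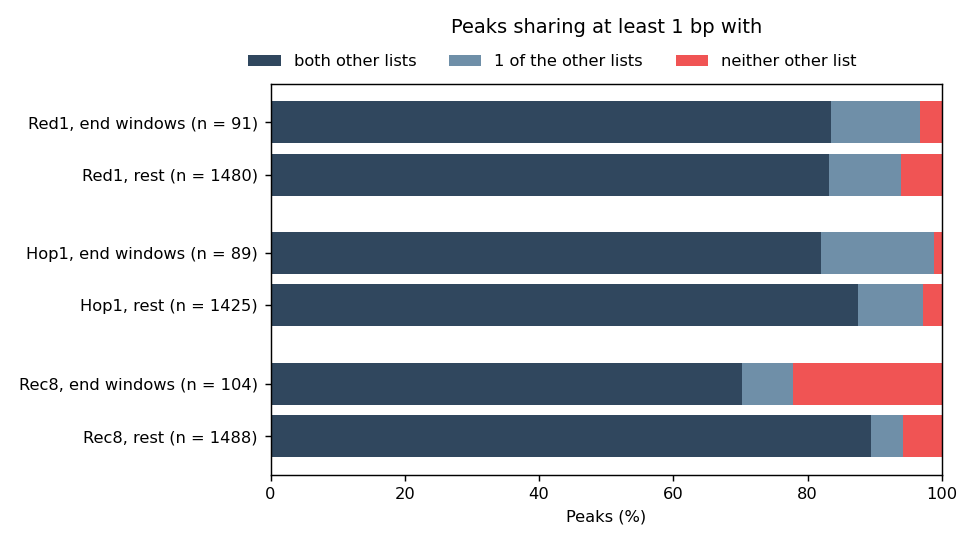
Share of Red1, Hop1 and Rec8 peaks (horizontal axis, %) that share at least 1 bp with both other lists, with 1 of them or with neither, for the end windows and for the rest, with the number of peaks beside each bar. The bar of Rec8 end peaks has the widest part without Red1 or Hop1, 22.1%, against 5.85% for the other Rec8 peaks. A Rec8 peak set the end of the span at 24 of the 32 ends, which can widen this part by construction.

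Overlap was least frequent among the outermost Rec8 peaks, but a Rec8 peak set the end of the span at 24 of the 32 ends. Where a Rec8 peak reaches beyond Red1 and Hop1 it defines the window, so these counts are a description. Of the 32 outermost Rec8 peaks, 1 per end, 15 (46.9%) overlapped both others and 14 (43.8%) overlapped neither. Of the 72 other Rec8 end peaks, 58 (80.6%) overlapped both and 9 (12.5%) overlapped neither. For Red1, 29 of the 31 outermost peaks (93.5%) overlapped both others, and for Hop1 24 of 31 (77.4%). No test was made of these counts.

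The 23 Rec8 end peaks without Red1 or Hop1 lay at 15 ends, 15 of them with their midpoint within 5 kb and 21 within 10 kb of the end. Their median width was 604 bp (204 to 2399 bp), below that of Rec8 end peaks overlapping both others (2300 bp), and their median fold enrichment was 1.37 (1.14 to 2.56). The 87 Rec8 peaks of the rest without Red1 or Hop1 had a median width of 395 bp and a median fold enrichment of 1.26 (highest 1.97). These differences were not tested. Only 3 reached a fold enrichment of at least 2, and all 3 touched the end of the span: XIV left (182 to 634, fold enrichment 2.56), IV right (1485883 to 1486582, fold enrichment 2.46) and IV left (7157 to 7516, fold enrichment 2.27). The weakest lay at XV left and XIV right, with fold enrichments of 1.14 to 1.18. Strong and weak Rec8 peaks were thus both found alone near ends.

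End peaks of Red1 or Hop1 without Rec8 were found as well. Among Red1 end peaks, 15 at 12 ends (16.5% of 91) overlapped no Rec8 peak, against 200 of the 1480 others (13.5%). Of these, 12 overlapped Hop1, and the other 3, at IX left, X left and XVI right, overlapped neither and had fold enrichments of 1.13, 1.16 and 1.349. The widest Red1 peak without Rec8 was one of 3014 bp at the edge of XII right (1020486 to 1023499, fold enrichment 1.45), which nearly coincided with a Hop1 peak (1020487 to 1023497, fold enrichment 1.36). Of the 91 Red1 end peaks, 0 overlapped Rec8 without Hop1, against 49 of the 1480 others (3.31%), a small share in both. Among Hop1 end peaks, 8 at 7 ends (8.99% of 89) overlapped no Rec8 peak, against 154 of the 1425 others (10.8%). Another 8, at 7 ends (8.99%), overlapped Rec8 without Red1, against 25 of the others (1.75%). No test was made of these shares. Those with Rec8 alone were narrow and weak, with a median width of 328 bp and a median fold enrichment of 1.18.

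Per base, at least 1 list covered 38.1% of the end windows (244 of 640 kb), against 35.9% of the rest. Of the covered sequence, 48.0% was shared by all 3 proteins at the ends, against 55.7% in the rest, and 21.7% was covered by Rec8 alone at the ends, against 8.17% in the rest. Red1 and Hop1 without Rec8 took 12.6% of the covered sequence at the ends, against 17.6% in the rest. Since a Rec8 peak set the end at 24 of the 32 ends, the rule can raise the share of Rec8 alone and lower the other shares. Per chromosome, the share covered by all 3 was 47.0 ± 15.4%, against 54.7 ± 5.31% (lower on 10 chromosomes, adjusted exact p = 0.158). The share of Red1 and Hop1 without Rec8 was 11.6 ± 9.38%, against 19.7 ± 10.1%, a difference of -8.06 percentage points that was negative on 13 chromosomes (adjusted exact p = 0.0420). This difference fell short of the threshold under 5 alternatives. Among them were windows from 2 to 22 kb, which leave out the outermost 2 kb (-6.32 points, adjusted exact p = 0.119). At single ends the share of covered sequence with all 3 proteins ran from 0, at III left and XV left, to 95.1% at V right. At III left the outermost Red1 and Hop1 peaks began 13418 and 13352 bp from the end, and the only Rec8 peak, of 394 bp, lay at the edge.

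The 3 shortest chromosomes, I, III and VI, had high Red1 and Hop1 coverage in the rest, but in 20-kb windows the coverage of their ends was not found to differ from that of the others. Red1 covered 30.3% of the end windows of the 3 shortest, against 25.2% in the other 13 (adjusted exact p = 0.493). Hop1 covered 32.8%, against 25.4% (adjusted exact p = 0.436), and Rec8 30.2%, against 29.9% (adjusted exact p = 0.957). These are exact permutation tests over the 560 possible sets of 3 chromosomes, and the smallest p they can reach is 0.00179. The 6 ends of the 3 shortest spread from 8.53 to 78.6% for Red1, from 13.0 to 80.1% for Hop1 and from 1.97 to 47.0% for Rec8, and both extremes of Red1 lay on chromosome I. With 40-kb windows the difference was 14.5 points for Red1 and 16.4 points for Hop1 (adjusted exact p = 0.0868 each, between 0.0868 and 0.821 over the alternatives of Red1, and up to 0.9997 over those of Hop1), and with 10-kb windows both were negative, at -3.86 and -1.44 points.

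Red1 summits, points of highest signal from a separate list of the authors, gave a second view of Red1. The end windows held 140 of 2385 summits, with 4.38 ± 2.69 per end (SD, n = 32) and a highest count of 13 at I right. IV right and XV left held no summit, although IV right held a broad Red1 peak with a fold enrichment of 1.15. The number of summits per 10 kb was 2.19 ± 0.849 in the end windows, against 2.16 ± 0.356 in the rest (higher on 7 chromosomes, adjusted exact p = 0.939). With left ends alone, counted from coordinate 1, this difference was -1.22 and passed the test, lower on 14 chromosomes. The median summit score was 118 ± 68.2, against 181 ± 23.6, a difference of -63.5 that was negative on 14 of 16 chromosomes (adjusted exact p = 0.0150). It lost its call under 6 alternatives, with adjusted p over all alternatives between 0.000763 and 0.624. The share of summits inside a Rec8 peak was 85.0% at the ends, against 85.1% in the rest, and that inside a Hop1 peak 97.1%, against 96.2%. The summits, too, come from Red1 ChIP-seq of wild type, so they are not independent of the Red1 list.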

How the data were processed

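Reads of wild-type Red1, Hop1 and Rec8 ChIP-seq samples were mapped by the authors to the SK1 genome with Bowtie, keeping perfect matches over 51 bp at 1 location, so sequence repeated between ends may lose reads. Fragments were extended to 200 bp, PCR duplicates were removed, and broad peaks were called on combined replicates with MACS2 2.1.1 at its default cutoff. The submitters' processing notes name the same tools. In the deposited peak lists the authors give the fold enrichment (ratio of ChIP to input, averaged over a peak) and the −log10 q-value of each peak. The deposited summit list holds a score per summit, and which of the caller's scores it is was not given in the sources used here. The lists hold no read counts, so their depth is unknown.

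Samples were grouped by their labels. Of 161 samples, 3 could not be mapped to a group and were not used, and the lists hold 0 columns of samples that could not be mapped. The members and the lists were chosen with earlier results of these data known. Peaks were assigned by midpoint, coverage was counted per bp inside the 20-kb windows, and overlap from 1 bp. End windows were compared with the rest of each chromosome in exact sign permutation tests over 16 chromosomes, with Benjamini-Hochberg adjustment over 25 tests. The named regions were, for each protein, the 2 end peaks with the highest fold enrichment and the widest, the 3 ends with the highest and the 3 with the lowest coverage by any list, and every end without a peak of a protein. Other regions were picked after their values were seen. Alternatives concerned the window, the q-value, the overlap, the mean in place of the median and single chromosomes, and the calculations were tested on simulated data. Transcript levels, which carry no positions, were not used here. No sequence or gene is given, since the genome at hand is S288C and not SK1. Python 3.11.15, NumPy 2.4.6, pandas 2.3.3 and matplotlib 3.10.9 were used.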

Additional observations from a re-analysis of the deposited data

Results flagged for a closer look

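Coverage by Red1 minus coverage by Rec8, and coverage by Hop1 minus coverage by Rec8, differed between the end windows and the rest by a test of the difference itself. For Red1 the difference, ends minus rest, was -12.1 percentage points, negative on 15 of 16 chromosomes. For Hop1 it was -10.8 points, negative on 13 of 16 chromosomes. Both contrasts use the same Rec8 list, so they are not independent of each other. A Rec8 peak also sets the end of the span at 24 of the 32 ends. The call was lost for both with 40-kb windows (-5.81 and -3.61 points) and with right ends alone (-10.5 and -9.01 points), and for Hop1 also in windows from 2 to 22 kb (-7.79 points) and without the 3 shortest chromosomes (-7.55 points).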

How the results depend on the processing

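No paired analysis was possible because each list combines its replicates, so samples could not be paired by number. The tests pair the ends and the rest of each chromosome. Over 12 alternative settings, 167 of 233 values kept their direction and call. Another 34 lost a call in the same direction, 4 gained one in the same direction and 28 changed sign, 4 of which passed the threshold in the new direction. Of the settings, 2 (left or right ends alone, counted from the span) were chosen after seeing the data. Except where said, the cause was not tested. Differences are ends minus rest or 3 shortest minus other chromosomes.

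With 10-kb windows, the reversed values were -0.0692 for Red1 peaks per 10 kb, 0.0135 for Rec8 fold enrichment, 0.351 for Hop1 overlap with both others, -3.86, -1.44 and -4.08 for Red1, Hop1 and Rec8 coverage at the ends of the 3 shortest chromosomes, and -0.208 for summits per 10 kb. The lost calls were fold enrichment of Red1 (-0.170) and Hop1 (-0.133) and summit score (-34.1).

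With 40-kb windows, calls were lost for Rec8 peaks per 10 kb (0.102), Red1 and Hop1 fold enrichment (-0.199 and -0.192), Rec8 overlap (-9.20), Red1 and Hop1 without Rec8 (-2.66), Red1 minus Rec8 (-5.81), Hop1 minus Rec8 (-3.61) and summit score (-67.2). Rec8 width reversed (7.09 bp).

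Windows from 2 to 22 kb leave out the outermost 2 kb, although wide peaks that set an end can still enter them. With these windows, Hop1 and Rec8 peaks per 10 kb (-0.0171 and -0.0861), Rec8 width (223 bp) and summits per 10 kb (-0.169) reversed. Calls were lost for Hop1 fold enrichment (-0.224), Rec8 overlap (-6.10), Red1 and Hop1 without Rec8 (-6.32), Hop1 minus Rec8 (-7.79) and summit score (-67.8).

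With left ends alone, counted from coordinate 1, Red1 and Hop1 coverage (-24.6 and -24.5) gained a call. Right ends were left out there, and arms with a late first peak have nothing to cover. Rec8 coverage (-11.0), Red1 and Hop1 peaks per 10 kb (-0.751 and -0.566) and summits per 10 kb (-1.22) reversed and passed the threshold, Rec8 peaks per 10 kb (-0.271) reversed without passing, and summit score (-65.8) lost its call.

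With a −log10 q-value of at least 5, Rec8 peaks per 10 kb (0.112) and Red1 and Hop1 without Rec8 (-7.49) lost their calls, and Rec8 width (128 bp) and Red1 overlap (-4.76) reversed. Without the 3 shortest chromosomes, calls were lost for Rec8 peaks per 10 kb (0.282), Hop1 fold enrichment (-0.137), Red1 and Hop1 without Rec8 (-5.30), Hop1 minus Rec8 (-7.55) and summit score (-51.7), and Rec8 width reversed (45.6 bp). Without chromosome XII, Rec8 peaks per 10 kb (0.250) lost its call and summits per 10 kb (-0.0335) reversed. Means in place of medians gave calls for Hop1 width (-948 bp) and Rec8 fold enrichment (-0.141). Counting an overlap from 50% of the peak reversed Hop1 overlap (3.65), and taking members by any overlap with the window reversed Rec8 width (103 bp).

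With left ends alone, counted from the span, Rec8 peaks per 10 kb (0.325) lost its call. The 3 shortest chromosomes' Red1, Hop1 and Rec8 coverage (-4.08, -0.211 and -6.75) and summits per 10 kb (-0.289) reversed. With right ends alone, Rec8 width reversed (228 bp) and calls were lost for Rec8 peaks per 10 kb (0.2001), Red1 and Hop1 fold enrichment (-0.180 and -0.146), Rec8 overlap (-11.0), Red1 and Hop1 without Rec8 (-6.53), Red1 minus Rec8 (-10.5), Hop1 minus Rec8 (-9.01) and summit score (-18.9).

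The lists have no replicates or read counts, so depth could not be weighed, and the number of chromosomes limits what the tests can show.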
